A study of Mus musculus with 2 samples.

Results

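The genes described here encode subunits of the sodium-potassium ATPase, the sodium pump, and its FXYD regulators. They were chosen by symbol: every row of the deposited table named Atp1a4, Atp1b1, Atp1b2, Atp1b3, Fxyd1, Fxyd6 or Fxyd7, which gave 7 of the 32813 symbols. The table holds RNA levels of 1 group, type 5 bipolar cells of the mouse retina, a cone bipolar class. Retinas of the Htr3a-GFP line were dissociated, and the cells were collected by their fluorescence, which in this line reports activity of the Htr3a promoter. There are 2 libraries, replicate 1 and replicate 2, which the design text describes as biological replicates. The libraries differed widely in Xist, an RNA made from the inactive X chromosome of female cells, at 2339 TPM in replicate 1 and 4.9 TPM in replicate 2; no source used here states the animals' sex, and its part in differences between the libraries was not tested. The sources used here give no genotype beyond the reporter, no treatment, no age and no number of animals per library. Levels are in transcripts-per-million units (TPM), a unit scaled to transcript length that sums to the same total in each library and keeps no read depth, so the depth is unknown. With no other cell population in the series, no value is an enrichment over other cells.

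The sodium pump moves sodium out of the cell and potassium in, against their gradients, at the cost of ATP. It pairs a catalytic alpha subunit, which binds the ions and is phosphorylated in each cycle, with a glycosylated beta subunit, which the alpha subunit needs to fold and reach the membrane. A small FXYD protein can join the pair and shift its affinity for ions. In the retina the pump is a large consumer of ATP, and it sustains the sodium gradient on which transmitter uptake, calcium extrusion and pH regulation run.

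Sequences of each family are printed here, beside measures of how alike its members are in sequence. All stretches are coding sequence, 5′ to 3′ on the gene's own strand, from GENCODE M21 transcripts on GRCm38, the assembly also called mm10. The first set lies in the part of the beta subunit outside the cell, near its end, and capitals mark the positions at which the 3 genes do not all carry the same base. The stretch of 54 bases runs from coding base 670 to 723 in Atp1b2 (chr11:69601398-69601563, minus strand, joined across an intron), from 718 to 771 in Atp1b1 (chr1:164438420-164438473, minus strand) and from 628 to 681 in Atp1b3 (chr9:96333680-96335417, minus strand, joined across an intron).
Atp1b2: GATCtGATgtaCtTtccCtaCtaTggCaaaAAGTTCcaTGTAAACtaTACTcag
Atp1b1: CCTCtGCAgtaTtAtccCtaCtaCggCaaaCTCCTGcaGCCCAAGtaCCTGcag
Atp1b3: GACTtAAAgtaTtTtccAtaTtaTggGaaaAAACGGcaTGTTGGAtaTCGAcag
In this stretch 30 of 54 positions differ among the beta genes. Over the aligned coding sequence Atp1b2 was 63.8% identical to Atp1b1, with a longest shared run of 19 bases, and 60.1% identical to Atp1b3, with a longest shared run of 12 bases. No window of 50 bases of the Atp1b2 transcript occurred in a transcript of another gene, on either strand.

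The second set shows, in capitals, the codons of the phenylalanine, any residue, tyrosine and aspartate that name the FXYD family, in 48 bases of Fxyd1 (coding bases 64 to 111, within chr7:31053458-31053923, minus strand), Fxyd6 (64 to 111, within chr9:45390642-45390793, plus strand) and Fxyd7 (31 to 78, within chr7:31045011-31051356, minus strand), each joined across at least 1 intron.
Fxyd1: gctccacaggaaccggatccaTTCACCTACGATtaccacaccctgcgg
Fxyd6: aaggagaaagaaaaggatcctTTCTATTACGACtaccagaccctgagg
Fxyd7: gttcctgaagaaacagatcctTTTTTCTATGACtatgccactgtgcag
Fxyd6 was 64.2% identical to Fxyd1 over aligned coding bases and 61.2% identical to Fxyd7. No window of 50 bases of these 3 transcripts occurred in another gene's transcript.

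The beta subunit RNA of the sorted cells was almost entirely Atp1b2. Atp1b2 encodes a beta subunit of neurons and glia, also known as an adhesion molecule on glia, and lies on chromosome 11 from 69599736 to 69605942. It had 1616 TPM in replicate 1 and 1553 TPM in replicate 2, a mean of 1584 ± 44.3 TPM (SD, n = 2). Both libraries were high and close to each other. The gene ranked 37 among all 32813 symbols by mean TPM, and 17 among the 20304 protein-coding genes outside the mitochondrial genome.

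Atp1b3 encodes a further beta subunit that is found in many tissues, and lies on chromosome 9 from 96332655 to 96364442. It had 16.6 TPM in replicate 1 and 6.84 TPM in replicate 2 (mean 11.7 ± 6.92 TPM, SD, n = 2). Both values lie far under those of Atp1b2, by 97.2-fold in replicate 1 and 227-fold in replicate 2. Of the windows of 50 bases in its transcript 11.7% also occurred in Gm1848, a processed pseudogene on chromosome X that has no value under that symbol among the deposited levels.

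Atp1b1, the beta subunit of most cell types, lies on chromosome 1 from 164437109 to 164458355. It had 0.55 TPM in replicate 1 and 5.32 TPM in replicate 2, and on the log2(TPM + 1) scale its libraries differed by more than those of Atp1b2 or Atp1b3 did. Its exons overlap those of Nme7 on the opposite strand over 575 bases. Nme7 had 2.72 and 4.98 TPM, and since the use of strand in counting is not stated, reads of the overlap cannot be assigned between the genes.

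As a share of the summed TPM of the 3 beta genes, which was 1633 TPM in replicate 1 and 1565 TPM in replicate 2, Atp1b2 took 98.9% and 99.2%. Atp1b3 took 1.02% and 0.437%, and Atp1b1 took 0.0337% and 0.34%. A share is taken within a library and does not change with the library's scaling. It describes RNA and does not give the amounts of protein.

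**Figure D1:**
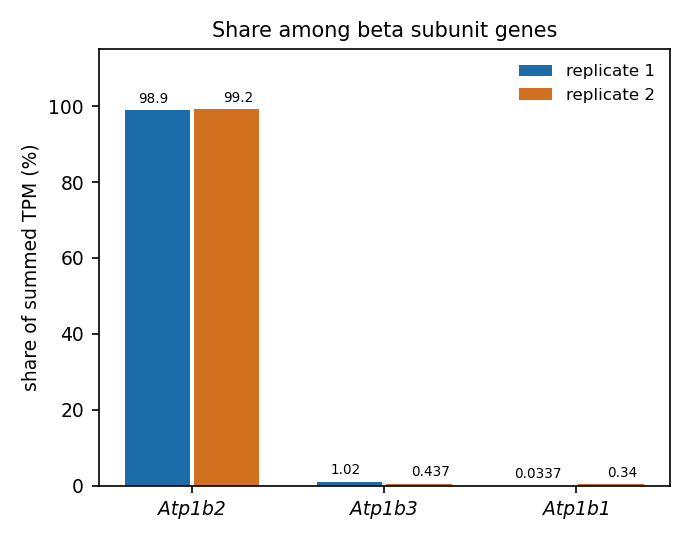
Share of each gene in the summed TPM of the 3 beta genes (vertical axis, percent), with 1 bar per library. Atp1b2 took 98.9% and 99.2% of beta RNA.

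Atp1a4, the alpha subunit of sperm, was the only alpha gene among the 7 and was close to 0. It lies on chromosome 1 from 172223513 to 172258414. Replicate 1 had 0.26 TPM of it, and replicate 2 listed it at 0. Of the 3421 windows of 50 bases in its transcript 86 (2.51%) also occurred in transcripts of other genes, so a value this low can hold reads of those genes.

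RNA of the 3 FXYD members was at or near 0. Fxyd1 encodes phospholemman, known as the regulator of the pump in heart and skeletal muscle, and was listed at 0 in both libraries. Fxyd7, known from brain neurons, was also listed at 0 in both. Fxyd6, known as phosphohippolin and expressed in brain, was at 0 in the first library and at 0.25 TPM in the second. No FXYD member reached 1 TPM in either library.

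Among the other FXYD genes, Fxyd5, which encodes dysadherin, had 0.65 TPM in replicate 1 and 5.14 TPM in replicate 2. Fxyd3 was at 2.02 TPM in replicate 1, and replicate 2 listed it at 0. Of the windows of 50 bases in the Fxyd3 transcript 63.2% also occurred in Lgi4, which overlaps it on the opposite strand and was listed at 0 in both libraries. Fxyd2, the gamma subunit of kidney, and Fxyd4, the kidney and colon regulator, were listed at 0 in both. The 7 FXYD genes summed to 2.67 TPM in replicate 1 and 5.39 TPM in replicate 2, so Atp1b2 alone had 605 and 288 times the TPM of all of them.

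A listed 0 needs care for short genes. The longest coding transcripts of Fxyd1 and Fxyd7 are 620 and 693 bases. Of 2132 protein-coding genes whose longest coding transcript is under 1000 bases 59.1% were listed at 0 in both libraries, against 27% of all 20290 matched protein-coding genes. Fxyd6, with 1789 bases, falls among the 4742 genes of 1000 to under 2000 bases, of which 38% were at 0 in both. The part of transcript length in the FXYD zeros was not tested. Rps27, a ribosomal protein gene used by every cell, was at 0 in replicate 1, while replicate 2 gave it 838 TPM. It was named after its values were seen, and its transcript length is not given here. Fxyd1 and Fxyd7, in contrast, were at 0 in both libraries.

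Fxyd1 and Fxyd7 are neighbours on the minus strand of chromosome 7, Fxyd7 from 31042513 to 31051467 and Fxyd1 from 31051678 to 31057199, with 210 bases between them. Fxyd5 lies 31 bases beyond Fxyd7 and Fxyd3 lies 10972 bases beyond Fxyd1. Fxyd6 lies on chromosome 9 from 45370185 to 45396159, 3509 bases from Fxyd2. The 4 genes on chromosome 7 were each under 6 TPM in both libraries, and so were Fxyd6 and Fxyd2.

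**Figure D2:**
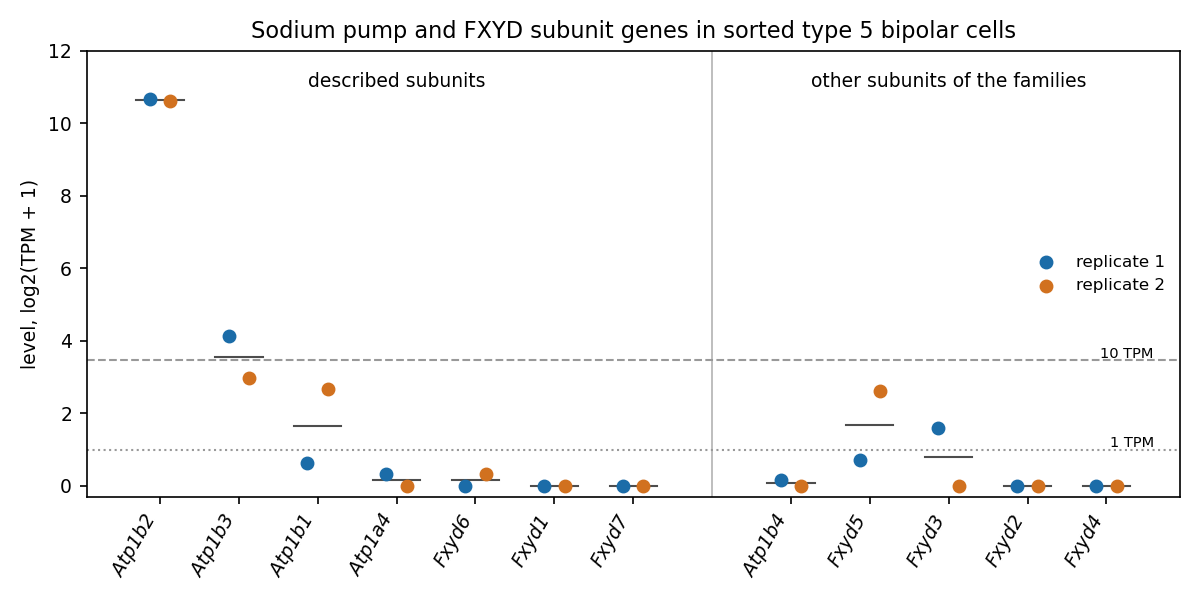
Level of each subunit gene on the log2(TPM + 1) scale (vertical axis), with 1 point per library and a short line at the mean of the libraries; the dotted and dashed lines are 1 and 10 TPM. Atp1b2 stands far above every other plotted gene, and each FXYD gene lies under 6 TPM.

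Of the 7 genes 2, Atp1b2 and Atp1b3, passed a test for a level over 1 TPM, and 1, Atp1b2, passed it for 10 TPM (limma over the 19968 genes above 0 in either library, one-sided, Benjamini-Hochberg adjusted p under 0.05). The share called among all genes tested was 55.5% at 1 TPM and 32.4% at 10 TPM, and 2 of 7 is no larger a share. Of the 7, 5 were above 0 in a library and entered the test, while Fxyd1 and Fxyd7 did not. The median over the 7 genes was 0.17 on the log2(TPM + 1) scale, against 0.75 over all symbols. In this fit each gene's variance came from the trend with abundance, so the disagreement of Atp1b3 or Atp1b1 between libraries did not enter its call. Atp1b3 was not called above 1 TPM when symbols at 0 in both libraries were kept in the fit.

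In the order of mean TPM over the 7 genes, Atp1b2 came first, Atp1b3 next and Atp1b1 after it, and the libraries of these neighbours did not overlap. Atp1a4 and Fxyd6 followed and overlapped each other, each under 0.3 TPM in both libraries. Atp1b4, a beta-like gene that has lost its pump role in placental mammals, had 0.11 TPM in replicate 1 and was at 0 in the other library. Fxyd1 and Fxyd7 came last.

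The members differed in how closely the libraries matched. Atp1b2 differed by -0.06 on the log2(TPM + 1) scale (replicate 2 minus replicate 1), where a single library's SD was 0.948 over the 64 genes at 1000 TPM or more and 0.567 over the 63 of these other than Xist. Each SD here is for a single library, and a difference between 2 libraries has an SD larger by the square root of 2. Atp1b3 differed by -1.17, against a single library's SD of 0.855 for the 8216 genes at 10 to 100 TPM. Atp1b1 differed by 2.03, against an SD of 1.16 for the 6128 genes at 1 to 10 TPM. Atp1b3 and Atp1b1 moved in opposite directions, so no common shift of the beta genes was seen. Atp1a4 and Fxyd6 differed by -0.33 and 0.32, against an SD of 0.469 for the 3976 genes under 1 TPM.

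**Figure D3:**
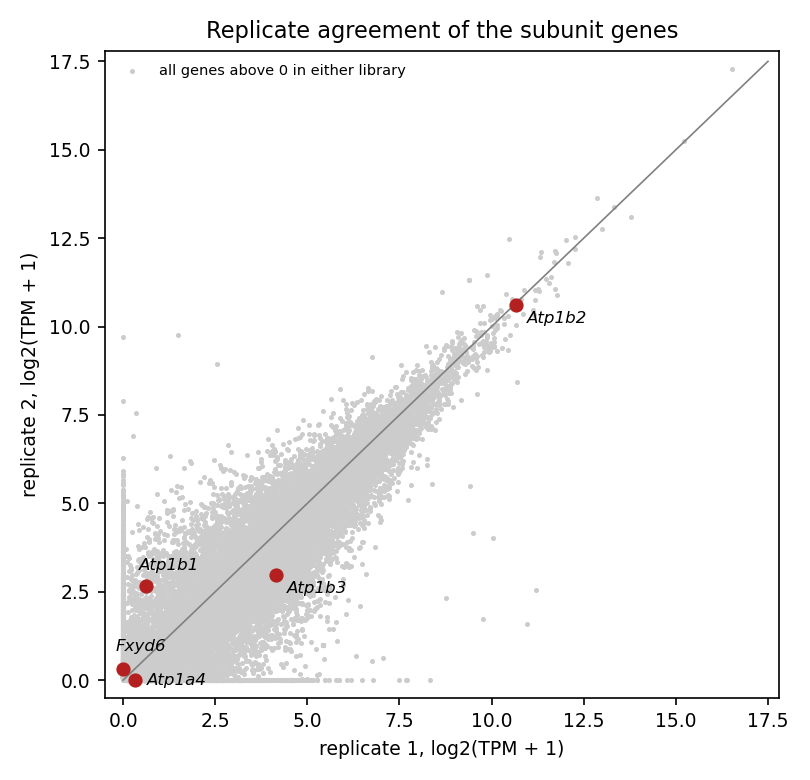
Level in replicate 2 against replicate 1, both on the log2(TPM + 1) scale, for all 19968 genes above 0 in either library (grey), and the 5 described genes above 0 (filled), with a line of equal level. Atp1b2 lies on the line, and Atp1b1 and Atp1b3 lie on opposite sides of it.

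The genes whose levels lay nearest to Atp1b2 over the 2 libraries, by Euclidean distance on the log2(TPM + 1) scale, were Gnao1 at 1494 and 1754 TPM (distance 0.209) and Aldoa at 1789 and 1755 TPM (distance 0.230). Gnao1 encodes a G protein alpha subunit of the ON bipolar cascade and Aldoa a glycolytic enzyme. Nearest to Atp1b3 were Irf2bp1 at 16.7 and 7.04 TPM (distance 0.037) and Gm5570 at 16.9 and 6.61 TPM (distance 0.047). Over 2 libraries this likeness says only that the levels match.

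Of the relatives of the pump, the proton-potassium ATPase genes Atp4b and Atp12a were listed at 0 in both libraries. Atp4a, the catalytic subunit of the stomach acid pump, was at 0 in the first library and at 0.07 TPM in the second. Of 10 genes of proteins that bind or regulate the pump 3 were above 1 TPM, no larger a share than the 55.5% of all genes tested. Agrn, which encodes agrin, a ligand of the pump in neurons, had 113 and 104 TPM. Sik1, a salt-inducible kinase, had 11.2 and 6.15 TPM.

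Exchangers and cotransporters that couple sodium to calcium, protons or bicarbonate were measured beside the pump. Of 22 such genes 21 were above 0 in a library and entered the test, and 14 of these were above 1 TPM. Among all genes tested 55.5% were called. Without a test 18 of the 21 had at least 1 TPM in both libraries, where 67.6% of the 19968 genes did. Both shares of the list are the larger ones, and whether the list differs from other genes was not tested. Slc4a10, a sodium-driven bicarbonate transporter, had 348 TPM in replicate 1 and 445 TPM in replicate 2. Slc24a3 and Slc24a2, exchangers of sodium for calcium and potassium, had 127 and 211 TPM, and 166 and 87.7 TPM. Slc8a1, a sodium-calcium exchanger, had 107 and 65.4 TPM. Each of these stood under Atp1b2 in both libraries. The median of the 22 genes was 3.80 on the log2(TPM + 1) scale, against 3.22 over all genes above 0 in either library. Some of the 22, such as Slc9a7, Slc9a8 and Slc9a9, act in organelles rather than at the cell surface.

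**Figure D4:**
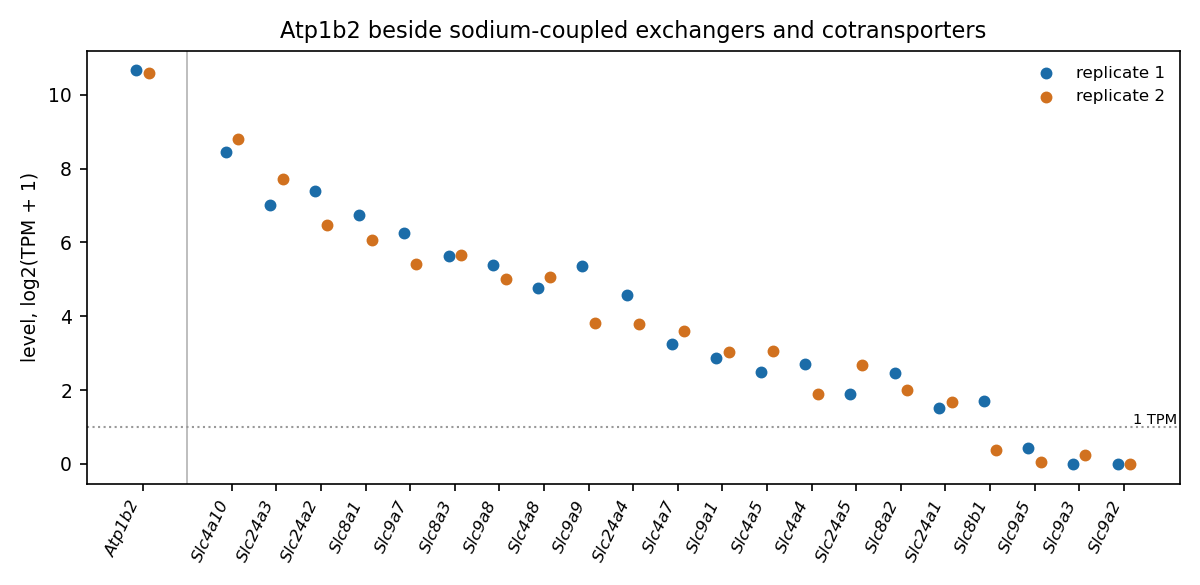
Levels of Atp1b2 and of sodium-coupled exchanger and cotransporter genes on the log2(TPM + 1) scale (vertical axis), 1 point per library, with the transporters ordered by mean TPM; the dotted line is 1 TPM. Slc4a10 leads the transporters and lies under Atp1b2 in each library.

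All 5 type 5 genes and all 7 bipolar genes examined were above 10 TPM, summing to 680 and 756 TPM and to 5739 and 5344 TPM. Of all genes tested, 32.4% were called above 10 TPM. Htr3a is 1 of the 5 type 5 genes and its promoter marked the cells for sorting, so its level is no separate check. No list was made for other bipolar types, so whether the cells were type 5 alone was not tested. Other cell types use the same pump subunits, so their markers stand beside the levels above. At the line of 1 TPM used for these markers, 55.5% of all genes tested were called. Of 8 rod genes 6 were above 1 TPM, summing to 1290 TPM in replicate 1 and 1284 TPM in replicate 2, 1 of 5 cone genes (104 and 29.5 TPM), and 5 of 7 Muller glia genes (188 and 284 TPM). Of 6 amacrine genes 2 were above 1 TPM (60.3 and 93.7 TPM), 1 of 6 ganglion cell genes (31.7 and 73.0 TPM, with Nefm and Sncg at 0 in both libraries), and 3 of 3 red blood cell genes (56.4 and 55.2 TPM). None of the horizontal, astrocyte, endothelial, pericyte, microglia or pigment epithelium genes, 16 in all, was called, and each of these lists summed to under 15 TPM per library. In bulk samples fewer cells of a type and less RNA per cell cannot be told apart.

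Atp1b2 differed little between the libraries, as did the summed rod genes, while the summed cone genes were 3.53-fold lower in replicate 2. Atp1b1, at 0.55 and 5.32 TPM, was higher in replicate 2, and the amacrine and Muller glia lists did not each move 1 way. Among the amacrine genes Gad1 had 0.06 and 10.4 TPM, Gad2 had 0.11 and 9.94 TPM and Tfap2b had 0.33 and 20.4 TPM, and Pax6 (22.3 and 46.5 TPM) and Tfap2a (0.96 and 3.33 TPM) were also higher in replicate 2. Slc6a9, a glycine transporter gene of the same list, ran the other way, with 36.6 TPM in replicate 1 and 3.12 TPM in replicate 2. Among the Muller glia genes Apoe had 1.29 and 27.0 TPM, Aqp4 had 0.68 and 6.77 TPM, Dkk3 had 11.2 and 31.7 TPM and Glul had 75.8 and 124 TPM. Rlbp1 had 2.31 and 3.74 TPM, while Slc1a3 (11.1 and 11.3 TPM) and Clu (85.7 and 79.5 TPM) hardly differed. The part of other cell types in the levels of the pump genes was not tested.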

How the data were processed

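RNA of type 5 retinal bipolar cells was sequenced in 2 libraries. Per the labels' protocols, the sort went into RNAlater and the NuGEN Ovation V2 kit, which amplifies small amounts of RNA, was used. The authors deposited 1 table of TPM with a column per library, and per the submitters' processing notes RSEM 1.2.28, TopHat2 2.0.10 and build mm10 were used, with no role stated. The sources used here give no annotation, filter or strand setting. The columns sum to 999999.75 and 999999.66. The column of replicate 1 has a misspelled gene name and was assigned by the number it carries. TPM keeps no depth, so no counting interval or floor is given. The p-values rest only on the spread between these libraries. In the fit over genes above 0 in either library, that spread came from the trend over all genes, not from each gene.

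Values were used as log2(TPM + 1), with a pseudocount of 1. Levels above 1 and 10 TPM were tested in limma 3.58.1 (R 4.3.3), with an intercept, a variance trend and Benjamini-Hochberg adjustment over the 19968 genes above 0 in either library, and the script was tested on simulated data. Of 50 genes simulated at 4 TPM 12 were called above 1 TPM. Of 50 simulated at 16 TPM 49 were called above 1 TPM and 8 above 10 TPM. A gene a little over a line was thus often not called. limma gave 19968 total degrees of freedom for each gene, an infinite prior, so single p-values are not printed. Gene models and coding sequences are GENCODE M21 and were aligned with Biopython 1.88 under Python 3.11.15. Members, lists and tests were chosen with earlier results of these data known. Genes named are the members, the pump relatives, the 4 highest of the partner and of the exchanger list, and the 2 genes nearest to each of the 2 highest members. Some genes that this rule takes are not reported here, and other genes named with values were chosen after their values were seen.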

Additional observations from a re-analysis of the deposited data

How the results depend on the processing

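Of 70 values recomputed under settings that keep both libraries, 65 stayed within the spread between the libraries or within 1.5 times of a count, and 5 moved. Leaving mitochondrial and ribosomal RNA out of the total, 17.3% and 24.7% of the libraries, gave Atp1b2 a mean of 2008.0 TPM, since the rest is scaled up. With symbols at 0 in both libraries kept in the fit, 1 of the 7 genes was above 1 TPM, Atp1b2; that fit tested 32813 genes with 2.27 total degrees of freedom. With a pseudocount of 0.1 the log2 difference between the libraries was -1.85 for Atp1a4 and 1.81 for Fxyd6, both of which have a library listed at 0. Leaving Xist out of the genes at 1000 TPM or more, a choice made after seeing the data, gave a single library's SD of 0.567, against 0.948 with it. Leaving out either of the 2 libraries returns the value of the other, so those 20 values are not in the count. They ran from 1553.0 to 1615.6 TPM for Atp1b2, with a share of beta TPM from 98.9% to 99.2%. They moved by more than 1.5 times from the mean for Atp1b1 (0.55 to 5.32 TPM, share 0.0337% to 0.34%), Atp1b3 (6.84 to 16.6 TPM, share 0.437% to 1.02%), Atp1a4 (0 to 0.26 TPM) and Fxyd6 (0 to 0.25 TPM). Leaving out a library leaves no residual degrees of freedom, so those values carry no test. The share of each FXYD member was not run because all 3 were listed at 0 in replicate 1. No paired analysis was possible because there is 1 group. The unknown depth limits every value near 0.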
